A study of Mus musculus with 8 samples.

Results

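The genes of condensin I and condensin II were examined in 8 mouse prostate tumors. They are the 8 genes whose names match the known subunits, out of 38115 genes with counts, and each had 1 row of counts. Smc2 and Smc4 belong to both complexes, Ncapd2, Ncapg and Ncaph belong to condensin I, and Ncapd3, Ncapg2 and Ncaph2 belong to condensin II. The choice used names alone and no measured value. All 8 genes were among the 17104 genes that passed the filter on low counts.

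Tumors grew from Myc-CaP cells, a line from the prostate carcinoma of a mouse that carries a Myc transgene, after the cells were placed in the anterior lobes of the prostate of male FVB mice. The androgen sensitive tumors (AS, from Myc-CaP/AS) and the castrate resistant tumors (CR, from Myc-CaP/CR) each came from 1 line, and hosts were either intact or castrated by surgery beforehand, so line, castration and phenotype cannot be told apart. There were 4 primary and 4 metastatic tumors, with 2 AS and 2 CR tumors in each type, here named AS1, AS2, CR1 and CR2. The study's own comparison used fewer primary tumors and does not name them. All 4 are used here. The metastases are described as matched, but neither their pairs, their sites nor the number of mice are given, so p-values measure only the spread between these 8 samples.

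Condensin is a ring-shaped complex that folds chromatin into loops and gives mitotic chromosomes their compact shape. The ATPases Smc2 and Smc4 form a V-shaped pair, which is closed by a kleisin (Ncaph in condensin I, Ncaph2 in condensin II) that carries a pair of HEAT-repeat subunits (Ncapd2 with Ncapg, or Ncapd3 with Ncapg2). Condensin II is in the nucleus throughout the cell cycle and starts compaction in prophase, while condensin I reaches chromosomes after the nuclear envelope breaks down.

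The total count per tumor was 20905806 to 76887592 in CR tumors and 61237285 to 91886163 in AS tumors. These ranges overlapped through primary CR1, the deepest CR tumor. The other CR tumors had at most 40586710 counts, so depth was lower in CR tumors apart from primary CR1. Of the markers of prostate epithelium, Foxa1 reached 48.2 to 101.8 CPM (counts scaled to a common effective library size) and Krt8 36.4 to 710.4 CPM, whereas the defining epithelial genes Epcam (at most 0.279 CPM), Krt18 (at most 0.418 CPM) and Cdh1 (at most 0.606 CPM) were near 0 in all 8 tumors. Markers of fibroblasts (72.3 to 206.7 CPM summed over 8 genes), endothelium (48.5 to 97.8 CPM over 7) and macrophages and neutrophils (108.5 to 278.7 CPM over 8) overlapped between primary and metastatic tumors, and lymphocyte markers summed to at most 2.42 CPM. The hepatocyte list was carried by Fgb, at 3710 to 10060 CPM in AS and 87.8 to 1967 CPM in CR tumors, while Alb stayed at or below 3.18 CPM. In tumor tissue, fewer cells of a type and less RNA per cell cannot be told apart.

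Promoters, from RefSeq on GRCm38.p6, were available for 7 of the 8 genes, since Smc4 had no entry. Those of the paired HEAT-repeat genes Ncapg and Ncapg2 and of the paired kleisin genes Ncaph and Ncaph2 are shown, because the counts of the first pair moved together across tumors and those of the second did not. Each runs from 250 bases before the start site to 30 bases after it, 5′ to 3′ on the gene's strand. Capitals mark matches, on either strand, to TTTGAA, a form of the cell cycle genes homology region (CHR), to TTTAAA, another form of it, to CCAAT, to the E2F motif TTCCCGC and to CACGTG, the E-box that Myc binds. The regions are chr5:45669675-45669954 on the plus strand for Ncapg, chr12:116405186-116405465 on the plus strand for Ncapg2, chr2:127133925-127134204 on the minus strand for Ncaph and chr15:89355469-89355748 on the plus strand for Ncaph2.
Ncapg: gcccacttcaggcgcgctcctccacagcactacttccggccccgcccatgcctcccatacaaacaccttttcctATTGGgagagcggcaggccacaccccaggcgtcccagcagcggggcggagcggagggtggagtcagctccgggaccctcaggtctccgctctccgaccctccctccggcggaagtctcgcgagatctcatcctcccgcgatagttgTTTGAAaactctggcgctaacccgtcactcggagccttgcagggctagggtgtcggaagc
Ncapg2: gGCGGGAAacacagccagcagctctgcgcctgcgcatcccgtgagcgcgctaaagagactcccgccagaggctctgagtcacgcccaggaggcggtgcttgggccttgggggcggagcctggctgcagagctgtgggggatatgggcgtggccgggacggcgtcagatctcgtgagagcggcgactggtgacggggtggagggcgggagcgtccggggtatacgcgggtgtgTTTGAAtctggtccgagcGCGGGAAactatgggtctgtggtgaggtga
Ncaph: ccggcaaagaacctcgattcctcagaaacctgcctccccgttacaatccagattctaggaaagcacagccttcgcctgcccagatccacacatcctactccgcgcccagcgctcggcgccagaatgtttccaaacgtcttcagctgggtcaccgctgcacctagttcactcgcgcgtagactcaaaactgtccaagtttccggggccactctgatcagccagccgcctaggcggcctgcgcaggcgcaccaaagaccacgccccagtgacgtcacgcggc
Ncaph2: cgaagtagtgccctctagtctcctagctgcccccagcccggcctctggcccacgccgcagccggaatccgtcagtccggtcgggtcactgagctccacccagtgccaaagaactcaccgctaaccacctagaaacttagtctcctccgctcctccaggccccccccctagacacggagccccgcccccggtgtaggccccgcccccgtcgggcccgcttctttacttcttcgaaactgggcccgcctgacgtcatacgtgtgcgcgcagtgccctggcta

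TTTGAA began 30 bases before the start site in Ncapg and 18 bases before it in Ncapg2. In the window to 50 bases after the start it was also found in Ncapd2, at position -123, and on the opposite strand in Smc2, at positions -145 and 27. It was absent from the windows of Ncaph, of Ncaph2 and of the first of 2 start sites of Ncapd3. The second Ncapd3 start held TTTGAA on the opposite strand at -249 and TTTAAA at -132. Of all 32851 promoter windows of 300 bases, 17.9% held TTTGAA and 13.2% held TTTAAA on either strand. CCAAT, found in 37.4% of all windows, was present in Ncapd2 (3 matches), Ncapg and Smc2. TTCCCGC, found in 4.6% of all windows, was present in Ncapg (1 match) and Ncapg2 (2 matches). The Ncapg match began at position 32, beyond the bases printed above. CACGTG, found in 7.15% of all windows, was in none of the 8 windows of these 7 genes. No match overlapped another, and a match is a description of the letters only. The promoters shown were chosen by the counts of their genes, so the matches they hold test nothing about those counts.

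Transcript levels were compared between subunits as CPM per kilobase of merged exons. Ncaph2, the kleisin of condensin II, was the highest at 26.9 ± 4.99 (SD, n = 8 tumors, as for all levels here), followed by Smc4 at 16.9 ± 7.03. Smc2 followed at 5.05 ± 2.08 and Ncaph, the kleisin of condensin I, at 4.49 ± 2.03. The HEAT-repeat subunits were lowest, with Ncapd3 at 2.73 ± 0.276, Ncapg2 at 1.84 ± 0.848, Ncapg at 1.69 ± 0.834 and Ncapd2 at 1.66 ± 0.584.

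Ncaph2 exceeded Smc4 in 7 of 8 tumors, and Smc4 exceeded Smc2 in all 8. Among the other neighbors in this order, Smc2 was above Ncaph in 5 tumors, Ncaph above Ncapd3 in 6 and Ncapd3 above Ncapg2 in 6. Ncapg2 was above Ncapg in 7 and Ncapg above Ncapd2 in 4 of the 8. The order of levels was not tested. With the longest annotated transcript as the length, Ncaph (7.18) passed Smc2 (5.12) and the other 6 genes kept their ranks. The Ncaph2 level includes sequence shared with other genes: 19.7% of its exon bases overlap exons of Sco2 and 12.7% exons of Tymp, both on the opposite strand, and whether reads were counted by strand is not given in the sources used here. Per kilobase Sco2 was at 7.72 to 17.2 CPM and Tymp at 2.59 to 7.08 CPM, against 20.7 to 36.4 CPM for Ncaph2.

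**Figure D1:**
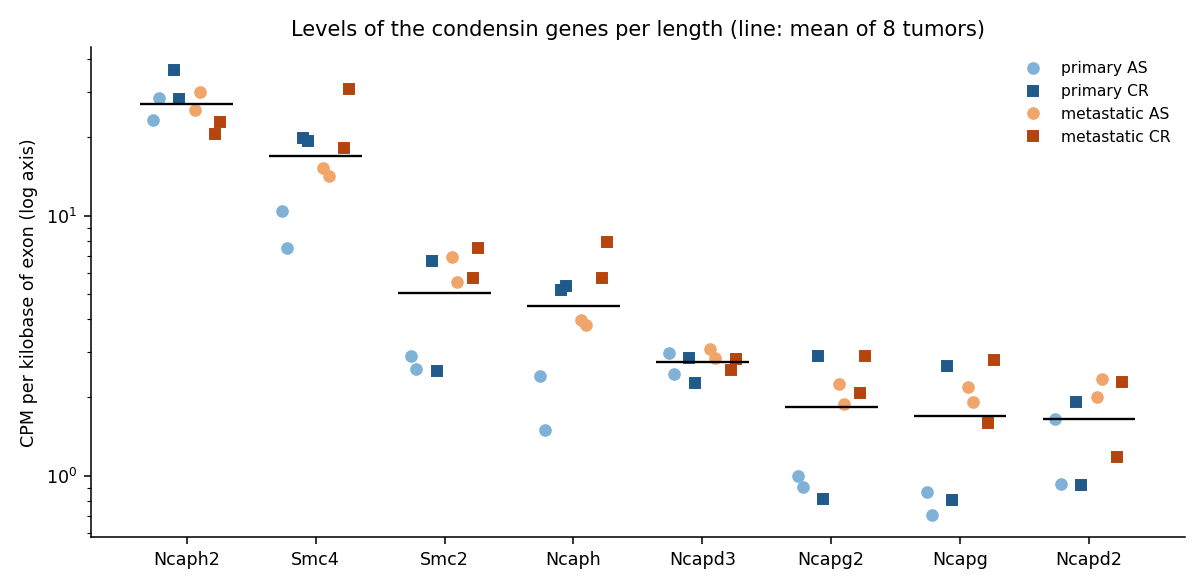
Level of each condensin gene in each of the 8 tumors, in CPM per kilobase of merged exons on a log axis, with genes ordered by their mean (line); color gives the tumor type and shape the phenotype. Ncaph2 and Smc4 sit at means of 26.9 and 16.9, and Ncapd3 has the narrowest spread, from 2.27 to 3.08.

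The first question of the design was whether condensin transcripts differed between metastatic and primary tumors. Transcripts of 7 of the 8 subunits had higher fitted levels in metastatic tumors, by 1.07 to 1.75 fold, and Ncaph2 had a lower one, but no subunit passed the adjusted threshold of 0.05. The values below are normalized read counts, which are counts scaled to the mean effective library size. Background is the share of all genes tested: 46.2% of genes had a positive log2 change, and 0% passed the adjusted threshold.

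Of the shared ATPases, Smc2 (chr4:52439243-52488260, plus strand, mm10) had 939.8, 836.5, 2169 and 820.1 normalized counts in primary AS1, AS2, CR1 and CR2, and 2261, 1803, 1870 and 2434 in metastatic AS1, AS2, CR1 and CR2. The 3 low tumors were all primary, and primary CR1 lay among the metastases, so the groups overlapped. The log2 change was 0.81 (SE 0.33), with an unadjusted p of 0.0330 and an adjusted p of 0.997 in edgeR's quasi-likelihood test, and the exact two-sided permutation p was 0.0857. In this fit, which has no term for phenotype, Smc2 was the only subunit with an unadjusted p under 0.05 and higher in metastases, against 1.56% of all genes. A permutation of 4 against 4 tumors cannot give a p below 0.0286.

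Smc4 (chr3:69004738-69034623, plus strand) had 3227, 2317, 6162 and 5970 normalized counts in the primary tumors, in the same order, and 4704, 4381, 5623 and 9470 in the metastases. Metastatic CR2 was highest, and the primary CR tumors exceeded the metastatic AS tumors, so the groups overlapped. Its fitted log2 change was 0.45 (SE 0.37), with an exact permutation p of 0.371. The microRNA genes Mir15b and Mir16-2 lie within introns of Smc4 and share no exon base with it.

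In condensin I, Ncapg (chr5:45669919-45700546, plus strand), a HEAT-repeat subunit, had 363.4, 296.0, 1111 and 338.0 normalized counts in the primary tumors and 919.8, 804.6, 669.7 and 1170 in the metastases. As in Smc2, 3 primary tumors were low and primary CR1 lay among the metastases. The log2 change was 0.75 (SE 0.43) with an exact permutation p of 0.114. Lcorl, on the opposite strand, overlaps 13.4% of the exon bases of Ncapg.

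Ncaph (chr2:127103809-127133954, minus strand), the kleisin, had 616.1, 384.0, 1327 and 1367 normalized counts in the primary tumors and 1015, 968.0, 1478 and 2032 in the metastases. Here the 2 primary AS tumors were lowest and both primary CR tumors lay between the metastatic AS and CR tumors. This gave a log2 change of 0.57 (SE 0.42), with an exact permutation p of 0.257.

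Ncapd2 (chr6:125168007-125191701, minus strand), the other HEAT-repeat subunit, had 614.2, 346.8, 715.9 and 341.0 normalized counts in the primary tumors and 748.5, 875.0, 438.9 and 851.9 in the metastases. Metastatic CR1 fell below 2 of the primary tumors. The log2 change was 0.53 (SE 0.32) with an exact permutation p of 0.171.

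In condensin II, Ncapg2 (chr12:116405402-116463731, plus strand), the counterpart of Ncapg, had 585.8, 532.0, 1696 and 479.1 normalized counts in the primary tumors and 1332, 1115, 1225 and 1696 in the metastases. The same 3 primary tumors were low as for Ncapg and Smc2. Ncapg2 had a log2 change of 0.70 (SE 0.40), with an exact permutation p of 0.114.

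Ncapd3 (chr9:27030175-27095315, plus strand), the counterpart of Ncapd2, had 1389, 1149, 1324 and 1064 normalized counts in the primary tumors and 1444, 1333, 1192 and 1319 in the metastases. Its highest and lowest tumors differed by 1.36 fold, the narrowest range of the 8 genes, against 5.29 fold for Ncaph. Its log2 change was 0.10 (SE 0.16), with an exact permutation p of 0.371.

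Ncaph2 (chr15:89355719-89372826, plus strand), the counterpart of Ncaph, had 5833, 7081, 9078 and 6984 normalized counts in the primary tumors and 6323, 7470, 5148 and 5687 in the metastases. The 2 lowest tumors were metastatic CR and the highest was primary CR1. The log2 change was -0.23 (SE 0.20), with an exact permutation p of 0.257, the only negative value of the 8 genes.

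**Figure D2:**
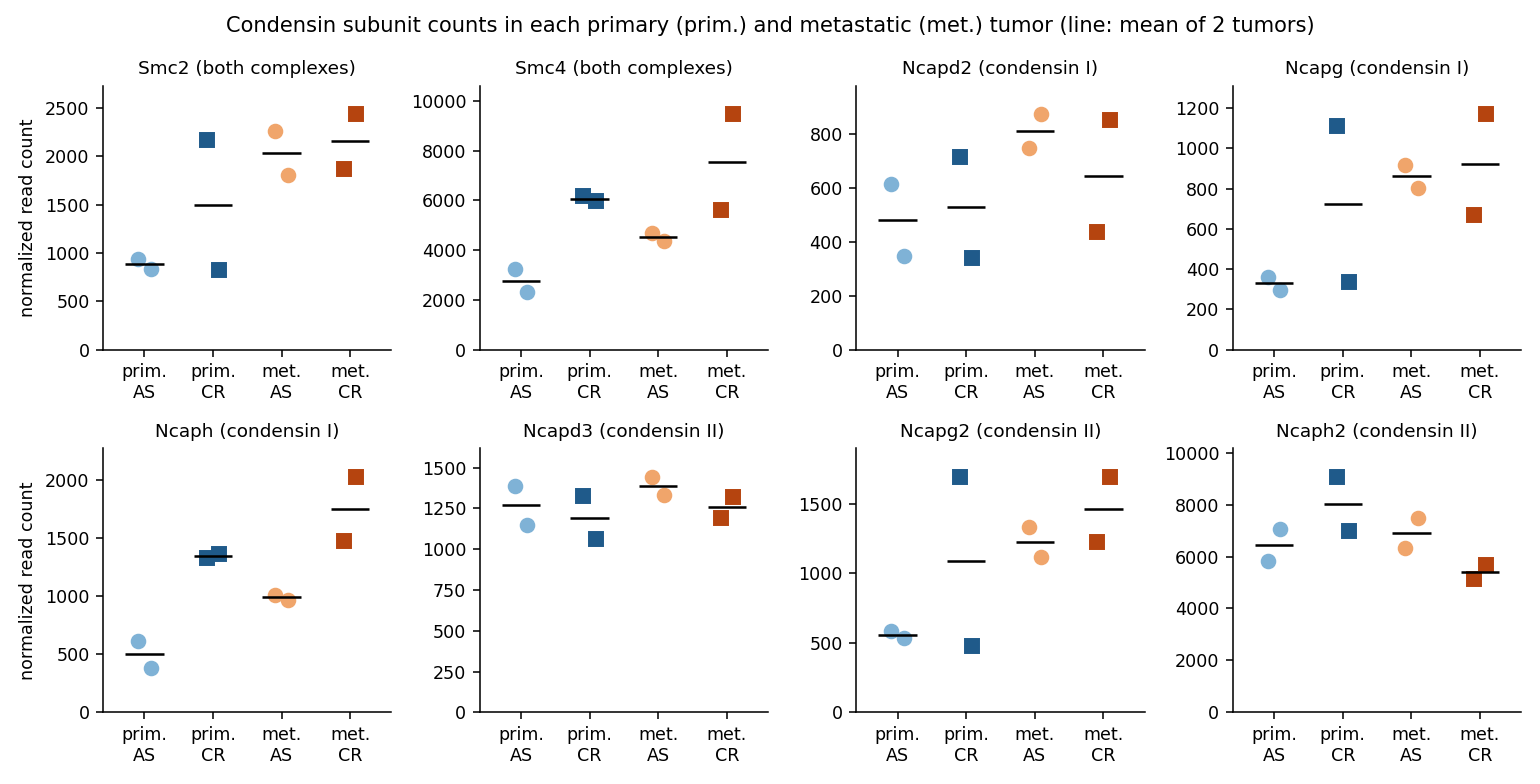
Normalized read counts of each condensin gene in each tumor by tumor type and phenotype, on linear axes from 0, with points for tumors and lines for the mean of 2 tumors. In Smc2, Ncapg and Ncapg2 the higher primary CR tumor (2169, 1111 and 1696) sits with the metastases, and in Smc4 and Ncaph all CR tumors lie above all AS tumors.

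The median log2 change of the 8 subunits was 0.55, with 0.57 for condensin I, 0.10 for condensin II and 0.63 for the shared pair, against a median of -0.03 over all genes tested. For all 8 genes the adjusted p was 0.997. No gene of the 17104 passed by edgeR or by DESeq2, and 459 had an unadjusted p under 0.05 in edgeR. No subunit had all 4 metastatic above all 4 primary tumors, against 0.854% of genes.

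More subunits had an unadjusted p under 0.05 once the fit had a term for phenotype. With phenotype as a covariate these were Smc2 (0.86, unadjusted p = 0.0187), Smc4 (0.51, unadjusted p = 0.0333) and Ncaph (0.68, unadjusted p = 0.0109), all higher in metastases, against 2.75% of all genes in edgeR. The possible pairings of tumors within phenotypes, taken in turn as a block, gave 5, 5, 3 and 6 subunits, against 3.22%, 2.77%, 2.69% and 2.51% of all genes. Smc2, Ncaph and Ncapg2 were among them in each of the 4 pairings. The adjusted p stayed at 0.657 or above for these subunits in all 5 fits.

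Leaving out 1 tumor also moved values without changing their sign. Without metastatic CR2 the log2 change fell from 0.45 to 0.15 in Smc4 and from 0.57 to 0.32 in Ncaph, and without primary AS2 it was 0.26 and 0.34. In Ncaph2 it went from -0.23 to -0.11 without primary CR1 and to -0.14 without metastatic CR1, and in Ncapd3 from 0.10 to between 0.05 and 0.16.

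The separation of the tumor types in Smc2, Ncapg and Ncapg2 depended on primary CR1. Without it, the metastatic mean was 2.42 fold the primary mean in Smc2, 2.68 fold in Ncapg and 2.52 fold in Ncapg2. In these 3 genes all 4 metastases then lay above the remaining 3 primary tumors. The share of all genes that did so is not given here, and the tumor left out was the high primary one in these 3 genes. The edgeR log2 changes were then 1.27 (SE 0.18), 1.42 (SE 0.24) and 1.33 (SE 0.21), each with an adjusted p of 0.238. DESeq2 without this tumor called the same 3 genes higher in metastases, with log2 changes of 1.28, 1.43 and 1.34, against 0.977% of all genes. The other 5 subunits were not called there. This tumor was left out because it stood apart in these genes, so the removal rests on the values compared. With DESeq2 and any of the other 7 tumors left out, 0 of 8 subunits were called, against 0% to 0.017% of all genes higher in metastases. Primary CR1 also had a high proliferation score, given with that comparison, and the highest total count of the primary tumors.

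**Figure D3:**
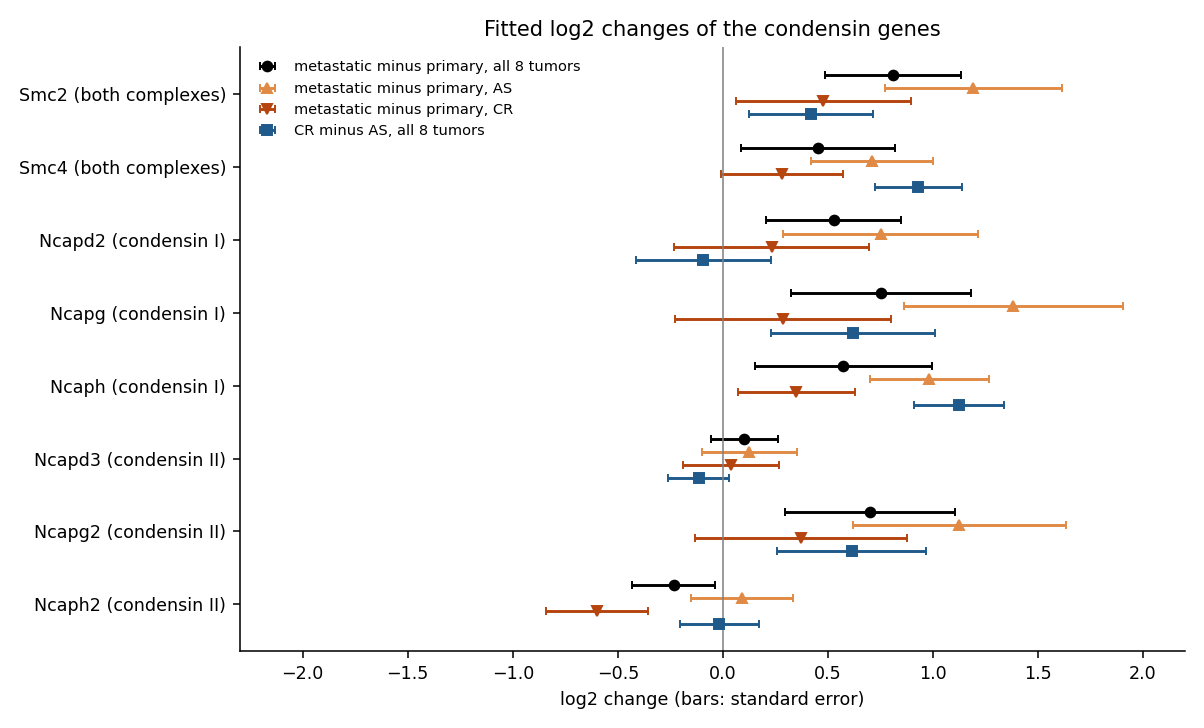
Fitted log2 changes with standard errors for the 8 condensin genes: metastatic minus primary over all 8 tumors, the same within AS and within CR tumors (2 against 2), and CR minus AS. Ncaph and Smc4 have the largest CR minus AS values (1.13 and 0.93), and Ncaph2 in CR tumors is the lowest at -0.60.

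The second question was whether phenotype mattered. Ncaph and Smc4 were higher in CR than in AS tumors after allowing for tumor type. For Ncaph the mean was 1551 ± 326.8 in CR and 745.7 ± 299.6 normalized counts in AS tumors (SD, n = 4 each), and for Smc4 it was 6806 ± 1790 and 3657 ± 1096. In both genes all 4 CR tumors lay above all 4 AS tumors, which 9.09% of genes also showed. The log2 change was 1.13 (SE 0.22, adjusted p = 0.0164, edgeR quasi-likelihood test with Benjamini-Hochberg adjustment) for Ncaph and 0.93 (SE 0.21, adjusted p = 0.0251) for Smc4. Against these 2 of 8 subunits, 6.16% of all genes were called higher in CR tumors.

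The other 6 subunits did not pass. Their log2 changes were 0.62 in Ncapg, 0.61 in Ncapg2, 0.42 in Smc2, -0.02 in Ncaph2, -0.09 in Ncapd2 and -0.12 in Ncapd3, with adjusted p from 0.290 to 0.965 in edgeR. The median over the 8 subunits was 0.52 and over all genes -0.01.

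With 1 tumor left out, the adjusted p in edgeR was 0.0123 to 0.0531 for Ncaph and 0.0210 to 0.0801 for Smc4. Neither passed without metastatic AS1 or without metastatic AS2, and Smc4 alone missed the threshold without primary AS1, primary AS2, primary CR2 or metastatic CR2. In the fits where a call was lost, the log2 change was 1.19 and 1.16 for Ncaph and 0.81 to 0.98 for Smc4, so the folds stayed about as large. Without primary CR1, Smc2 turned from 0.42 to -0.0014, Ncapg went from 0.62 to 0.06 and Ncapg2 from 0.61 to 0.07.

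Depth differed between CR and AS tumors as given above, and single markers of several cell types were called. Of all 17104 genes tested, 2081 were called in either direction, and whether markers were called more often was not tested. By edgeR the called markers were Krt8 (1 of 7 prostate epithelial genes tested), higher in CR at 1.85 (adjusted p = 0.0442), and, all lower in CR, Fgb at -3.98 (adjusted p = 0.0276) and Ttr at -1.30 (adjusted p = 0.0498; 2 of 3 hepatocyte genes), Postn at -1.995 (adjusted p = 0.0348; 1 of 8 fibroblast genes) and Hopx at -1.87 (adjusted p = 0.00439; 1 of 2 lung epithelial genes). Of the macrophage and neutrophil genes 6 of 7 had a negative value, with a median of -0.84 and 0 called, and their summed level was 185.3 to 251.6 CPM in AS and 108.5 to 278.7 CPM in CR tumors. The lung epithelial list summed to 49.2 to 84.8 CPM in AS and 9.21 to 34.0 CPM in CR tumors. No gene of the endothelial, lymphocyte, muscle or adipocyte lists was called. The part of depth and of these markers in the Ncaph and Smc4 values was not tested.

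Within AS tumors 9162 of all 18889 genes in the fit had a positive change. All 8 subunits had higher fitted levels in metastases, with a median log2 change of 0.87. The largest was 1.38 (SE 0.52) in Ncapg, followed by 1.19 (SE 0.42) in Smc2, 1.13 (SE 0.51) in Ncapg2 and 0.98 (SE 0.28) in Ncaph. Ncapd2 had 0.75, Smc4 0.71, Ncapd3 0.13 and Ncaph2 0.09. By edgeR 4 subunits (Ncaph, Smc2, Ncapg and Smc4) had an unadjusted p under 0.05, against 1.55% of genes that were higher at this threshold, and every adjusted p was 1.0 (DESeq2 also called 0 of the 8).

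Within CR tumors the values were smaller, with a median of 0.28. Smc2 had 0.48 (SE 0.42), Ncapg2 0.37 (SE 0.50), Ncaph 0.35 (SE 0.28), Ncapg 0.29 (SE 0.51), Smc4 0.28 (SE 0.29), Ncapd2 0.23 (SE 0.47) and Ncapd3 0.04 (SE 0.23). In Smc2, Ncapg and Ncapg2, in that order, the metastatic CR means were 2152, 919.7 and 1461 normalized counts. Primary CR1 lay above these means at 2169, 1111 and 1696, and primary CR2 below them at 820.1, 338.0 and 479.1. The part of primary CR1 in the smaller values was not tested. Ncaph2 had a log2 change of -0.60 (SE 0.24), an unadjusted p of 0.0378 and an adjusted p of 0.625 in edgeR. Its normalized counts were 5148 and 5687 in metastatic CR1 and CR2, and 9078 and 6984 in primary CR1 and CR2. The overlapping genes moved with it: Sco2 had 700.9 and 573.7 normalized counts in metastatic CR1 and CR2 against 1201 and 743.7 in primary CR1 and CR2, and Tymp had 421.6 and 312.9 against 764.8 and 476.2, and their part in the Ncaph2 value was not tested. Of all genes 5.37% were lower at this unadjusted threshold. Each of these contrasts sets 2 tumors against 2, with the spread pooled over the 4 groups.

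The difference between the phenotypes was itself tested. Of all 18889 genes in this fit, 8775 had a positive interaction value. All 8 interaction values of the subunits were negative, from -1.10 (SE 0.73) in Ncapg to -0.09 (SE 0.32) in Ncapd3, and in Ncaph2 the value was -0.69 (SE 0.34). None had an unadjusted p under 0.05, against 2.74% of genes, and the adjusted p was 0.964 to 0.987 in edgeR. A difference between AS and CR tumors in the metastatic change was therefore not shown for any subunit. In Smc2, Ncapg and Ncapg2 the CR side of the interaction included primary CR1, which was high as given above.

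Condensin I was set against condensin II within each tumor as the mean log2(CPM + 1) of its 3 own subunits minus that of the 3 of condensin II. The difference was -1.61, -2.11, -1.38 and -1.41 in primary AS1, AS2, CR1 and CR2, and -1.32, -1.30, -1.30 and -0.86 in metastatic AS1, AS2, CR1 and CR2. All metastases lay above all primary tumors, but metastatic AS1 and primary CR1 differed by little, and no test was made of a score over chosen genes. The mean was -1.63 ± 0.34 in primary and -1.20 ± 0.23 in metastatic tumors (SD, n = 4), a difference of 0.43.

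The paired subunits differed from each other in this respect. Ncapg and Ncapg2 kept nearly the same ratio in all tumors: Ncapg minus Ncapg2 was -0.59 ± 0.12 in primary and -0.57 ± 0.17 in metastatic tumors on the log2(CPM + 1) scale. The kleisins did not, since Ncaph minus Ncaph2 was -3.04 ± 0.73 in primary and -2.17 ± 0.67 in metastatic tumors. It ranged from -4.01 in primary AS2 to -1.46 in metastatic CR2, and was -3.15 ± 0.62 in AS and -2.06 ± 0.56 in CR tumors. Ncapd2 minus Ncapd3 was -1.25 ± 0.34 in primary and -0.85 ± 0.35 in metastatic tumors.

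The ATPases also varied against each other, although both are needed in each complex. Smc4 minus Smc2 was 1.85 ± 0.63 in primary and 1.45 ± 0.39 in metastatic tumors. Per length, Smc4 was 7.65 times Smc2 in primary CR2 and 2.19 times in metastatic AS1, the extremes of the 8 tumors. Ncaph2 made up 80.0% to 90.1% of the summed CPM per kilobase of the condensin II subunits, so on that scale the sum of condensin II followed Ncaph2.

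**Figure D4:**
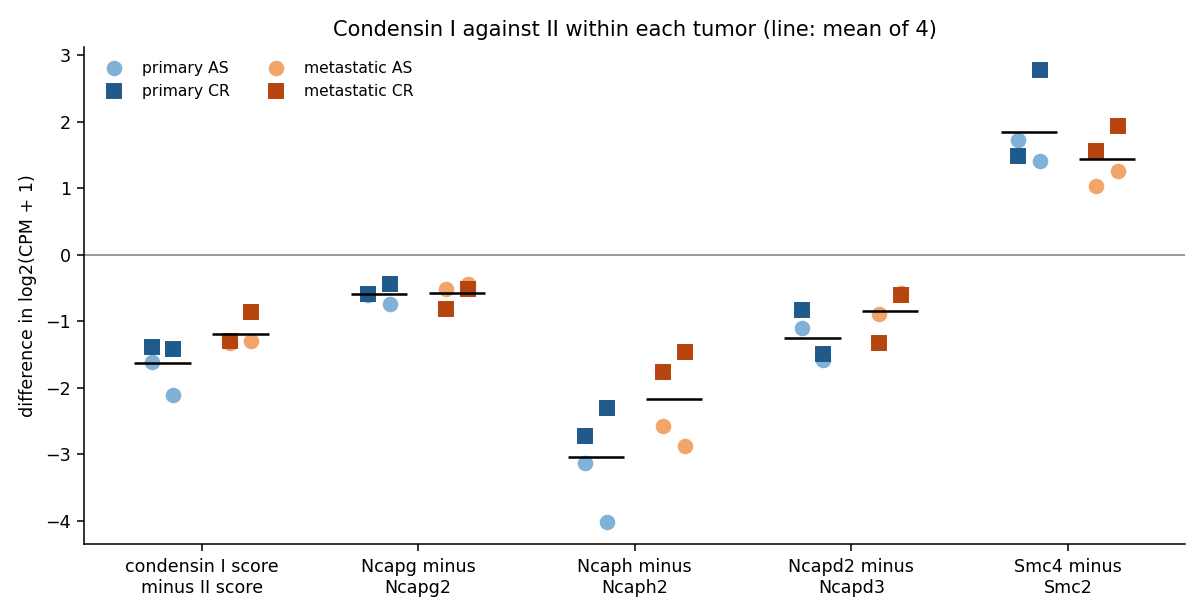
Differences in log2(CPM + 1) within each tumor between the condensin I and II scores and between paired subunits, with primary tumors at the left and metastatic tumors at the right of each column and lines for the mean of 4. The difference between complexes is higher in all 4 metastases (-1.32 to -0.86) than in the primary tumors (-2.11 to -1.38), Ncapg minus Ncapg2 is level, and Ncaph minus Ncaph2 spans -4.01 to -1.46.

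The 5 genes whose log2(CPM + 1) pattern over the 8 tumors was most like the condensin I profile, among 13552 compared, were Ska3 (Pearson r = 0.995), Ndc80, Sgol2, Esco2 and Racgap1 (r = 0.977 to 0.982), genes of the kinetochore, centromere, sister chromatid cohesion and cytokinesis. For the shared pair, the genes of highest r included Lig1 (r = 0.996), a replication ligase, Mad2l1 (r = 0.985), a spindle checkpoint protein, and Rad51ap1 (r = 0.973). For condensin II they were Trmt12, Gm15428, Hist2h3c2, Hist1h2bj and Hist1h3a (r = 0.969 to 0.983), among them replication-dependent histone genes, which occur in near-identical copies and so have uncertain counts. The condensin II profile is a mean of subunits with unlike patterns. Ncaph2 had r = 0.03 with Ncapg2 and -0.03 with Ncapd3, and Ncapd3 had r = 0.57 with Ncapg2. These values are descriptions over 8 tumors that share their libraries and depths.

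Among the regulators and partners of condensin, 14 of 16 genes had a positive metastatic minus primary log2 change, the median was 0.89, and 0 passed the adjusted threshold in edgeR (4 had an unadjusted p under 0.05, all higher). Of all genes tested 46.2% had a positive value and 1.56% were higher at this unadjusted threshold. Plk1, a mitotic kinase that phosphorylates condensin, had the largest increase at 1.33 (SE 0.55), and Kif4, a chromokinesin that binds condensin I, the largest decrease at -0.31 (SE 0.38). Top2a, the topoisomerase that works with condensin on mitotic chromosomes and the gene the study turned on, had 0.93 (SE 0.51). Its adjusted p was 0.997 in edgeR, and primary CR1, at 8184 normalized counts, lay among the metastases at 4861 to 8340. The paper reports increased Top2a in metastatic tumors, from fewer primary tumors by DESeq and from qRT-PCR that included additional tumors. Mki67, whose product coats mitotic chromosomes, had 1.29 (SE 0.32), with metastases at 4717 to 8506 and primary tumors at 1498 to 3887 normalized counts. Cdk1, whose kinase activity starts condensation, had 0.38 (SE 0.48), and Mcph1, an inhibitor of condensin II, had -0.02 (SE 0.26).

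Of the related SMC complexes, cohesin and its regulators had 13 of 17 positive values and a median of 0.25, with Sgol2 at 1.28 (SE 0.49) and Hdac8 at -0.50 (SE 0.21). The Smc5/6 complex, which acts in repair, had 4 of 6 positive values and a median of 0.05, with Smc6 at 0.43 (SE 0.37) and Nsmce1 at -0.23 (SE 0.17). Of 4 meiotic SMC and kleisin genes only Stag3 was tested, at 0.52 (SE 0.56), and their summed level was at most 0.795 CPM. None of these genes passed the adjusted threshold in edgeR for metastatic against primary tumors.

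For CR against AS tumors, edgeR called 1 of 16 regulators (Top2b, 0.57, SE 0.13, adjusted p = 0.0313), 1 of 17 cohesin genes (Smc1a, 0.74, SE 0.16, adjusted p = 0.0216) and 2 of 6 Smc5/6 genes (Smc6, 1.04, SE 0.14, adjusted p = 0.00486, and Nsmce4a, 0.61, SE 0.16, adjusted p = 0.0395), all higher in CR tumors. These 4 were named after their values were seen. The background is the 6.16% given above.

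Proliferation genes outside the condensin lists were measured in the same tumors. All 26 had a positive metastatic minus primary log2 change with a median of 0.81, 9 had an unadjusted p under 0.05 and 0 passed in edgeR, against 46.2% of all genes with a positive value and 1.56% higher at the unadjusted threshold. The largest increase was that of Ube2c at 1.42 (SE 0.56), with no decrease among them. Their mean log2(CPM + 1) was 3.25, 2.95, 4.46 and 2.94 in primary AS1, AS2, CR1 and CR2, and 4.34, 4.32, 3.80 and 4.62 in the metastases in the same order. Primary AS1, AS2 and CR2 were thus the 3 low tumors, as in Smc2, Ncapg and Ncapg2, and primary CR1 was second only to metastatic CR2. Smc4 and Ncaph did not follow this division: in primary CR2, at the lowest proliferation score, they had 5970 and 1367 normalized counts, above both metastatic AS tumors. The part of proliferation in the condensin values was not tested.

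**Figure D5:**
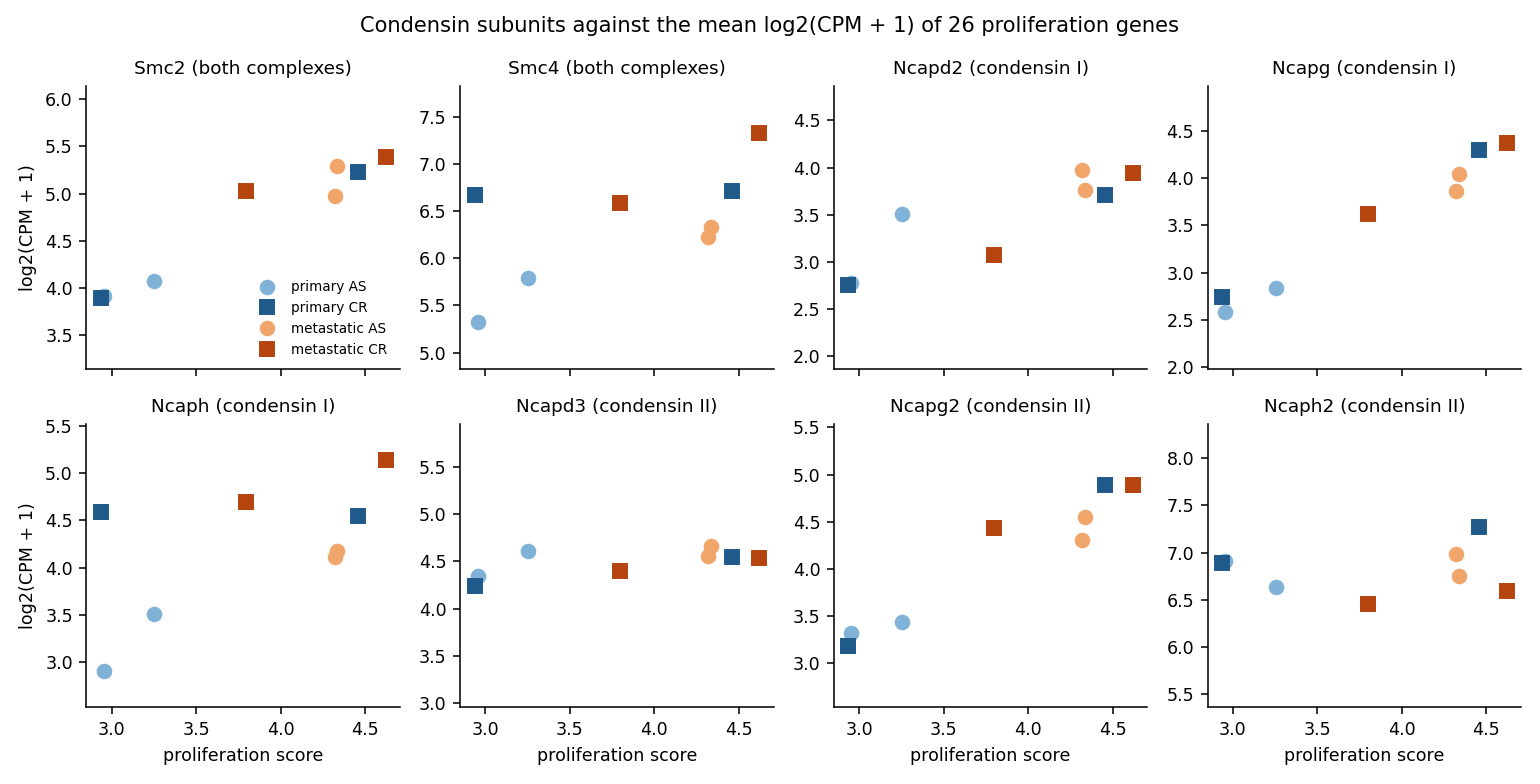
Each condensin gene in log2(CPM + 1) against the mean log2(CPM + 1) of the 26 proliferation genes, 1 point per tumor, with vertical axes of equal span. Smc2, Ncapg and Ncapg2 are low in the 3 tumors with scores of 2.94 to 3.25 and high in the other 5, Smc4 and Ncaph are high in primary CR2 at the lowest score, and Ncapd3 and Ncaph2 stay within narrow bands. Pearson r with the score was 0.99 in Ncapg, 0.97 in Smc2, 0.96 in Ncapg2 and 0.88 in Ncapd2. It was 0.67 in Ncapd3, 0.62 in Smc4, 0.60 in Ncaph and 0.10 in Ncaph2.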

How the data were processed

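RNA was sequenced from 4 primary and 4 metastatic tumors. The authors depleted ribosomal RNA, sequenced stranded libraries as paired-end reads of 101 bases, mapped them to mm10 with Bowtie keeping unique matches with up to 2 mismatches, and deposited raw counts per gene. The submitters' processing notes name CASAVA 1.8.2 and TopHat2 2.0 instead, and the counting tool and its use of strand are not given in the sources used here.

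Deposited counts were tested over all genes with edgeR 4.0.16 in R 4.3.3 (filterByExpr, TMM factors, quasi-likelihood test, Benjamini-Hochberg adjustment, threshold 0.05). SE is the log2 change over the root of the F statistic. The filter left 17104 genes for the comparisons by tumor type and by phenotype (tumor type as a covariate) and 18889 for the 4-group fit. DESeq2 1.42.0 was an alternative. Exact permutation tests were two-sided. CPM uses effective library sizes, and levels per kilobase use merged exons of GENCODE M21 (mm10), where 36343 of 38115 identifiers were found. Total counts were 20905806 to 91886163 per tumor, and the part of counting error in the variation between tumors was not measured. The fits were checked on simulated data with known changes. Shared sequence was searched with blastn 2.17.0.

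Members and lists were chosen with earlier results of these data known. Named genes were all subunits, Top2a, Mki67, Cdk1, Mcph1, the largest increase and decrease in each list of related genes where none passed, and the 5 nearest patterns. Some genes that these rules or the marker lists name are not reported here. Marker lists are given by range. Alternatives were other factors, filters, tests, covariates, pairings, pseudocounts and lengths, and each tumor left out.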

Additional observations from a re-analysis of the deposited data

Results flagged for a closer look

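In groups of 4 tumors, a value is given here where the gap to its nearest neighbor exceeded Dixon's limit for 4 values, which it did with 0.845 to 0.941 of the group's range. Chance gives about 1 in 20 such groups, and 64 overlapping groups were examined. Primary CR1 stood above the other 3 primary tumors in Smc2 (2169 against 820.1 to 939.8 normalized counts), in Ncapg (1111 against 296.0 to 363.4) and in Ncapg2 (1696 against 479.1 to 585.8). It also had a condensin II score of 5.57, against 4.77 to 4.90 in the other primary tumors. Metastatic CR2 stood above the other CR tumors in Smc4 (9470 against 5623 to 6162 normalized counts), and its condensin I minus condensin II difference was -0.86 against -1.32 to -1.30 in the other metastases.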

How the results depend on the processing

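For metastatic against primary tumors, 0 subunits passed in the main test and in 25 of 26 alternatives, and 3 passed (Smc2, Ncapg and Ncapg2, of 180 genes) in DESeq2 without primary CR1. Every subunit kept the sign of its log2 change in all 26, of which DESeq2 without each of the other 7 tumors was added after the data were seen. No paired analysis by labelled pairs was possible because the pairs are not given, and 0 subunits passed under each of the 4 possible pairings. For CR against AS tumors, 2 passed with DESeq2, RLE factors and no filter, and 0 to 2 with 1 tumor left out, while 2081 genes passed in the main test, 3544 with DESeq2 and 481 to 4133 with 1 tumor left out. With 1 tumor left out the log2 change was -0.0014 to 0.59 in Smc2, -0.40 to 0.12 in Ncapd2 and -0.17 to 0.092 in Ncaph2, and Ncaph2 had 0.0060 with DESeq2 and 0.0058 with RLE factors. Within AS tumors 1 subunit passed (Ncapg, of 179 genes called in all) with no filter on low counts. Within CR tumors and for the interaction 0 subunits passed in every alternative run (375 and 217 genes in all with no filter, 0 in the main test), and the interaction without each tumor was added after the data were seen. The condensin I minus II difference between metastatic and primary tumors was 0.84 as log2 of summed CPM per kilobase and 0.27 to 0.51 with 1 tumor left out. The cause of these shifts was not tested. Where 1 tumor was left in a group, it was assumed to vary like the other groups. The lowest raw count of any subunit was 115 (Ncapg in primary CR2), and counting error was not measured against the variation between tumors.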

Other observations

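Scarna10, a small Cajal body RNA gene, lies within Ncapd2 on the same strand and shares 3.78% of its exon bases, and Gm28967 shares 3.75%. Scarna10 had 9857, 13130, 19310 and 6111 normalized counts in primary AS1, AS2, CR1 and CR2, and 12090, 13600, 6912 and 6015 in metastatic AS1, AS2, CR1 and CR2, in the same libraries as the Ncapd2 values above. Per kilobase it was at 312.0 to 1001 CPM, against 0.917 to 2.35 CPM for Ncapd2. The mean was 12170 ± 1665 in AS and 9587 ± 6494 in CR tumors (SD, n = 4), so the groups overlapped. Lcorl, on the opposite strand of Ncapg, had 1166 to 1858 normalized counts in primary and 1206 to 1950 in metastatic tumors, and its lowest 2 tumors were primary AS1 and AS2.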
